A study of Homo sapiens with 27 samples.

Results

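Mucins are heavily O-glycosylated proteins of epithelial surfaces. The transmembrane mucins carry their sugars on a long extracellular domain and are sorted to the apical membrane, the free face of a polarized epithelial sheet, where they hydrate the surface and keep other cells and particles away. Expression of 9 genes of epithelial membranes was followed in the human embryonic stem cell line H1 on its way to photoreceptor progenitors. The 9 genes were 6 transmembrane mucins (MUC1, MUC4, MUC12, MUC15, MUC16, and MUC20) and 3 other genes of epithelial membranes (EPCAM, CEACAM6, and MAL2), out of 44852 genes in the count table. They were picked by symbol because MUC15 and related apical genes had lower values on LN523 than on LN521 at day 32. That contrast, the other contrasts that use the day 32 LN523 or LN521 libraries, and the day 32 ranks of these genes are therefore given as description, with no test.

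Laminins are trimeric proteins of the basement membrane, on which epithelial and retinal cells rest. H1 cells were plated on coatings named here LN523, LN323, and LN521, and RNA was collected at days 2, 22, and 32, with 3 libraries of each of the 9 matrix and day groups, 27 in all. All groups were kept in pluripotent stem cell medium to day 2, then in medium with SB431542 and CKI-7, and later in photoreceptor medium with BDNF, CNTF, retinoic acid, and DAPT. The study's methods give LN521 alone and LN523 or LN323 mixed with LN521, whereas the sample labels give LN323 alone and LN523 or LN521 mixed with LN323, so each matrix is named by its leading isoform only. The library titles count the same days as 0, 20, and 30. No label says that the 3 replicates of a group came from separate cultures, so p-values measure only the spread between these libraries, which may be technical. The replicate number was the same as the sequencing lane throughout.

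Total counts per library ran from 25620624 to 47340990, with a median of 39862487. Markers of pluripotent cells fell from day 2 to day 22 in 9 of 9 genes on each matrix, and retinal progenitor markers rose in 8 of 8. At day 32, 0 of 9 libraries had a library of its own matrix as its nearest neighbour by Pearson correlation across genes, and 8 of 9 had one with the same replicate number. The corresponding counts were 2 and 5 of 9 at day 22, and 4 and 0 of 9 at day 2. At day 2, LN523 replicate 2 lay nearest to LN323 replicate 3 (r = 0.991, against 0.984 within its own group), and LN323 replicate 2 lay nearest to LN523 replicate 3 (r = 0.989, against 0.979). At day 22, LN523 replicate 2 lay nearest to LN323 replicate 2 (r = 0.989, against 0.931). Values of the 9 genes are given within each lane and, because several were highest in replicate 2, also without lane 2.

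The genes lie on 7 chromosomes of GRCh38, and MUC4 and MUC20 are neighbours on chromosome 3. MUC20 occupies 195720884 to 195741123 on the plus strand and MUC4 occupies 195746765 to 195811973 on the minus strand, with 5641 bases between them. MUC1 lies on chromosome 1 at 155185824 to 155192916, MUC12 on chromosome 7 at 100969565 to 101018939, MUC15 on chromosome 11 at 26559032 to 26572263, MUC16 on chromosome 19 at 8848844 to 9010390, EPCAM on chromosome 2 at 47345158 to 47387601, and CEACAM6 on chromosome 19 at 41750977 to 41772211. Reads of some members cannot be placed with certainty. Of the longest MUC20 transcript, 45.3% is matched by the pseudogene MUC20P1 or by MUC20-OT1, and 21.5% of that of EPCAM is matched by another gene. ANO3 overlaps 4.9% of the MUC15 exons on the opposite strand. MAL2-AS1 likewise overlaps 5.9% of the MAL2 exons.

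Upstream sequence is shown for 3 mucins whose levels moved between day 2 and day 22, because MUC4 fell and MUC16 rose on the 3 matrices and MUC12 fell on LN523 and LN323. Each run holds the 250 bases before the RefSeq start on GRCh38.p14, written 5′ to 3′ on the gene's own strand, and capitals mark every match of the motifs named after the sequences. MUC4 covers chr3:195811930-195812179 on the minus strand, MUC12 covers chr7:100969315-100969564 on the plus strand, and MUC16 covers chr19:9065752-9066001 on the minus strand.
MUC4: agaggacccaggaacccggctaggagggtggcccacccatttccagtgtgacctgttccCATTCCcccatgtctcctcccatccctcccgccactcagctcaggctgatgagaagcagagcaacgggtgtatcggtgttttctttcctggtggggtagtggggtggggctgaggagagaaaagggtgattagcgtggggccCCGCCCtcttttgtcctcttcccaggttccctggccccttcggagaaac
MUC12: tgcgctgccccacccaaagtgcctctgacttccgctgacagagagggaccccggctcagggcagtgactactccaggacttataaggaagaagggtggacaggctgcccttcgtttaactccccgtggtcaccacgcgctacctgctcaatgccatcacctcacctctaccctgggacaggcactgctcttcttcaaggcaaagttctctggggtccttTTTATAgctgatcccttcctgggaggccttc
MUC16: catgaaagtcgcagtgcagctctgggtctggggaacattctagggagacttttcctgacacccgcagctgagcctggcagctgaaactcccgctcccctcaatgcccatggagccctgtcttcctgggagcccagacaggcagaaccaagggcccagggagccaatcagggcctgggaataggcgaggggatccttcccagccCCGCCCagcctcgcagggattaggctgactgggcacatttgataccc
RefSeq promoters were at hand for 5 of the 9 genes (MUC1, MUC4, MUC12, MUC16, and CEACAM6), and MUC15, MUC20, EPCAM, and MAL2 were not matched. The RefSeq start of MUC16 lies 55361 bases from the GENCODE gene start, that of CEACAM6 4553 bases, and that of MUC4 44 bases. The bases searched for MUC16 and CEACAM6 may therefore not be the promoters in use. Motifs were searched on both strands in 35116 promoters of the same length. The GC box GGGCGG of SP and KLF factors was found in MUC1, MUC4, MUC16, and CEACAM6, and in 42.6% of all promoters. TATAAA was found in MUC1, MUC12, and CEACAM6 (10.7% of all promoters), and the TEAD word GGAATG in MUC1 and MUC4 (11.9%). The E-box CACCTG (17.5%) and the AP-2 word GCCNNNGGC (19.8%) were found only in MUC1 among these 5, where the AP-2 word overlaps a GC box. The grainyhead word AACNGGTT (1.49%) was in 0 of 5. GC content was 60.4% for MUC4, 57.6% for MUC12, and 61.6% for MUC16, and the median of all promoters was 58.0%.

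Levels can be set side by side between genes only per transcript length, as TPM, the length-corrected share of a library's transcripts. At day 2, EPCAM and MAL2 dominated, with mean TPM of 249 to 286 and 67.9 to 92.2 over the 3 matrices, while the 6 mucins were at 1.00 TPM or lower. At day 32, EPCAM was still the most abundant (54.1 to 118 TPM), followed by MAL2 (27.4 to 53.7 TPM) and MUC15 (5.81 to 28.5 TPM). Mean levels of MUC16 (1.48 to 3.44 TPM), MUC20 (1.33 to 3.80 TPM), and MUC1 (0.943 to 1.65 TPM) overlapped in their ranges. MUC4 and MUC12 were at 0.142 TPM or lower in each day 32 group, and CEACAM6 reached 1.71 TPM on LN521 and 0.142 TPM or less elsewhere. Values of one gene are given below as CPM, counts scaled to library size after TMM normalization, which do not correct for length.

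**Figure D1:**
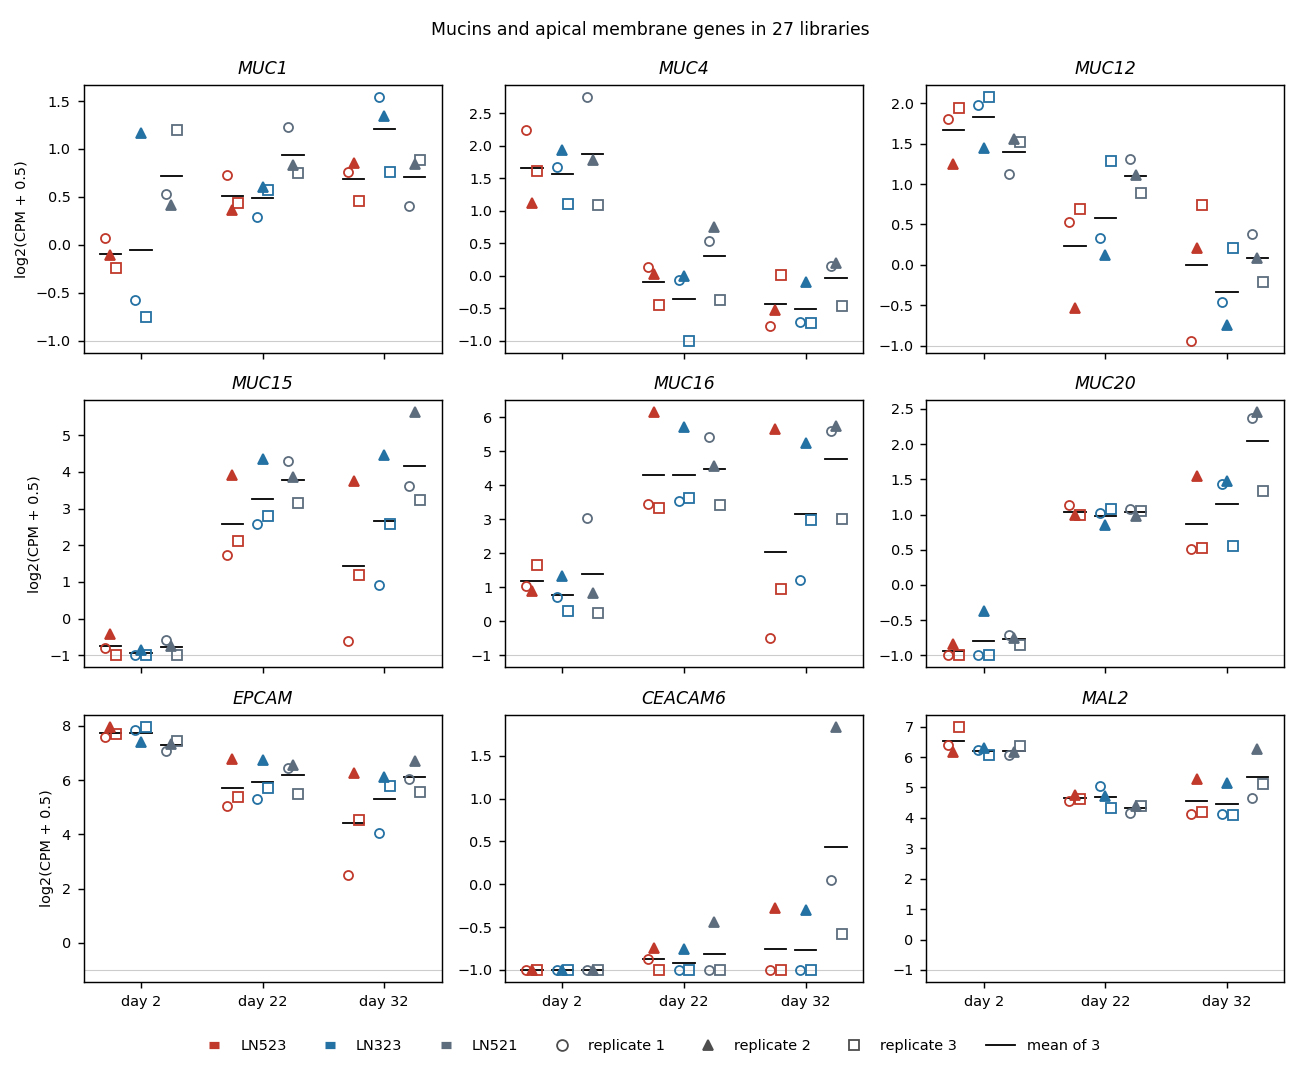
Level of each of the 9 genes in the 27 libraries, as log2(CPM + 0.5), by matrix and day, with replicate 2 as filled triangles, a grey line at the level of 0 counts, and a separate vertical range for each gene. MUC15, MUC16, and MUC20 stand higher at day 22 than at day 2 on the 3 matrices, EPCAM and MAL2 stand lower, and at day 32 replicate 2 is the highest of its group for 7 of 9 genes on each matrix.

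Between day 2 and day 22, the 9 genes parted in both directions. MUC15, MUC16, and MUC20 rose on every matrix, and MUC4, EPCAM, and MAL2 fell on every matrix, by the quasi-likelihood test of edgeR (p adjusted by Benjamini-Hochberg over 42785 genes, threshold 0.05). MUC12 fell on LN523 and LN323 and did not pass the test on LN521. In all, 7 of 9 members passed on LN523 and on LN323, and 6 of 9 on LN521, where 24.8%, 25.7%, and 22.5% of all genes tested passed. On each matrix 3 members rose, against 14.2%, 14.1%, and 13% of all genes. Those that fell numbered 4, 4, and 3, against 10.5%, 11.6%, and 9.56%. The day 2 and day 22 ranges did not overlap for any member that passed. Such separation upward was seen in 18.6%, 19.5%, and 18.1% of all genes on LN523, LN323, and LN521, and downward in 17.7%, 19.9%, and 17.6%. Levels in bulk RNA do not tell fewer cells of a type from less RNA per cell, at this or any later comparison. Among the libraries of days 2 and 22, the biological coefficient of variation was 41.6%.

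MUC15, a small transmembrane mucin first known from milk fat globule membranes, was almost absent at day 2. Its counts there were 3, 8, and 0 on LN523, 0, 2, and 0 on LN323, and 6, 4, and 0 on LN521. At day 22, MUC15 was at 2.82, 14.6, and 3.83 CPM on LN523, at 5.48, 20.1, and 6.49 CPM on LN323, and at 19.0, 14.0, and 8.43 CPM on LN521, for replicates 1, 2, and 3. Every day 22 library was thus above every day 2 library. The log2 fold change was 6.06 (SE 0.56, adjusted p = 2.531e-22, edgeR) on LN523 and 7.54 (SE 0.58, adjusted p = 3.138e-30) on LN521. On LN323, only 2 counts were made at day 2 against 1303 at day 22, a ratio of 738 with a 95% exact counting interval of 204 to 6100.

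MUC16, which carries the CA125 antigen and binds mesothelin, was already detected at day 2, at 0.684 to 7.74 CPM. At day 22 it stood at 10.4, 71.0, and 9.66 CPM on LN523, 11.2, 51.8, and 11.9 CPM on LN323, and 42.7, 23.0, and 10.2 CPM on LN521. Replicate 2 was the highest library on LN523 and LN323, and replicate 1 on LN521. The log2 rises were 3.64 (SE 0.38, adjusted p = 3.128e-18, edgeR) on LN523, 4.30 (SE 0.38, adjusted p = 3.018e-24) on LN323, and 3.03 (SE 0.35, adjusted p = 6.918e-15) on LN521. The rise on LN523 was 2.57 without replicate 2 of day 22, and that on LN521 was 4.91 without replicate 1 of day 2, the library with 7.74 CPM. MUC16 did not pass under limma on log2(TPM + 1), with adjusted p of 0.0533, 0.0572, and 0.0822 on LN523, LN323, and LN521, and passed on the 3 matrices with a pseudocount of 0.1.

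MUC20, a transmembrane mucin that interacts with the receptor MET, went from 10 counts or fewer per library at day 2 to 1.30 to 1.69 CPM in the 9 day 22 libraries. Its day 22 levels were the most even of the mucins, at 1.56 ± 0.11, 1.48 ± 0.16, and 1.55 ± 0.07 CPM on LN523, LN323, and LN521 (SD, n = 3). The log2 rises were 4.39 (SE 0.84, adjusted p = 2.432e-06, edgeR) on LN323 and 4.25 (SE 0.82, adjusted p = 3.804e-06) on LN521. The first rested on replicate 2 of day 2, which held all 10 counts of its group, and was 8.83 without it. On LN523, 188 counts at day 22 stood against 2 at day 2, a ratio of 85.7 with a 95% exact counting interval of 23.4 to 713. Intervals of this kind cover counting error only. They would be too narrow if read mates were counted separately, and 68.8% of the non-zero counts in the table were even.

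MUC4, a large transmembrane mucin known as a partner of ERBB2, stood at 4.25, 1.66, and 2.55 CPM on LN523 at day 2, and at 0.602, 0.523, and 0.229 CPM at day 22. On LN323, its level went from 1.64 to 3.34 CPM down to a highest value of 0.501 CPM, with 0 counts in replicate 3. On LN521, it went from 1.63 to 6.21 CPM down to 0.275 to 1.18 CPM. The log2 fold changes were -2.67 (SE 0.60, adjusted p = 8.33e-05, edgeR), -3.17 (SE 0.62, adjusted p = 4.096e-06), and -2.11 (SE 0.57, adjusted p = 0.001828). With limma on log2(TPM + 1) and log2(TPM + 0.1), MUC4 did not pass on LN523 (adjusted p = 0.109 and 0.0886) or on LN323 (0.124 and 0.0616). On LN521 it passed with the first (adjusted p = 0.0320, limma) and not with the second (0.0762).

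MUC12, a transmembrane mucin best known from the colon, was at 1.67 to 3.71 CPM in the 9 day 2 libraries. At day 22 it was at 0.949, 0.190, and 1.12 CPM on LN523, at 0.761, 0.592, and 1.94 CPM on LN323, and at 1.97, 1.66, and 1.35 CPM on LN521. MUC12 fell by 1.83 (SE 0.55, adjusted p = 0.005346, edgeR) on LN523 and by 1.46 (SE 0.54, adjusted p = 0.03143) on LN323, on the log2 scale. On LN521 the log2 fold change was -0.32 (SE 0.53, adjusted p = 0.7623, edgeR). The call on LN323 was kept in 2 of 6 fits that left out 1 library. It was lost without LN323 replicates 1 or 3 of day 2 (-1.39 and -1.51) or replicates 1 or 2 of day 22 (-1.21 and -1.33), and without the lane block (-1.38, adjusted p = 0.0616, edgeR). On LN523 the call was lost without replicate 2 of day 22 (-1.46, adjusted p = 0.0652), and without lane 2 it was lost on both matrices.

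MUC1, the most widely expressed transmembrane mucin, stayed low and did not pass the test on any matrix with all libraries in the fit. Its log2 fold changes from day 2 to day 22 were 1.22 (SE 0.68, adjusted p = 0.2155, edgeR) on LN523, 0.78 (SE 0.69, adjusted p = 0.5374) on LN323, and 0.29 (SE 0.65, adjusted p = 0.8531) on LN521. On LN523 the 2 days did not overlap, at 0.347 to 0.547 CPM and 0.785 to 1.16 CPM. On LN323 the day 2 values were spread widely, at 0.168, 1.75, and 0.0912 CPM. There MUC1 passed without replicate 2 of day 2 (2.98, SE 0.88, adjusted p = 0.003556, edgeR) and with lanes 1 and 3 only (2.81, SE 0.90, adjusted p = 0.008741).

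EPCAM, an adhesion molecule of epithelia that is also abundant in pluripotent stem cells, had the highest levels of the 9. At day 2 it was at 194, 246, and 209 CPM on LN523, at 229, 170, and 250 CPM on LN323, and at 134, 160, and 172 CPM on LN521. At day 22 its levels were 32.2, 108, and 40.7 CPM on LN523, 39.0, 107, and 52.3 CPM on LN323, and 87.3, 94.4, and 44.5 CPM on LN521. Each day 22 library was below each day 2 library, and replicate 2 was the highest of each day 22 group. EPCAM fell, with log2 fold changes of -1.83 (SE 0.21, adjusted p = 2.817e-15, edgeR), -1.75 (SE 0.21, adjusted p = 3.498e-14), and -1.02 (SE 0.21, adjusted p = 1.245e-05) on LN523, LN323, and LN521.

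MAL2, a MARVEL protein that takes part in transcytosis to the apical membrane, fell with a small spread. From 66.2 to 127 CPM on LN523 and LN323 and 65.8 to 81.5 CPM on LN521 at day 2, it came to 23.3, 26.5, and 24.1 CPM on LN523, 33.0, 25.8, and 19.5 CPM on LN323, and 17.6, 20.4, and 20.4 CPM on LN521. The log2 fold changes were -1.79 (SE 0.22, adjusted p = 1.547e-13, edgeR), -1.37 (SE 0.22, adjusted p = 1.115e-08), and -1.84 (SE 0.22, adjusted p = 3.358e-14). CEACAM6, an adhesion molecule anchored in the membrane by a lipid, had 0 counts in the 9 day 2 libraries and 0 to 10 counts in those of day 22, so no fold change is given for it.

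**Figure D2:**
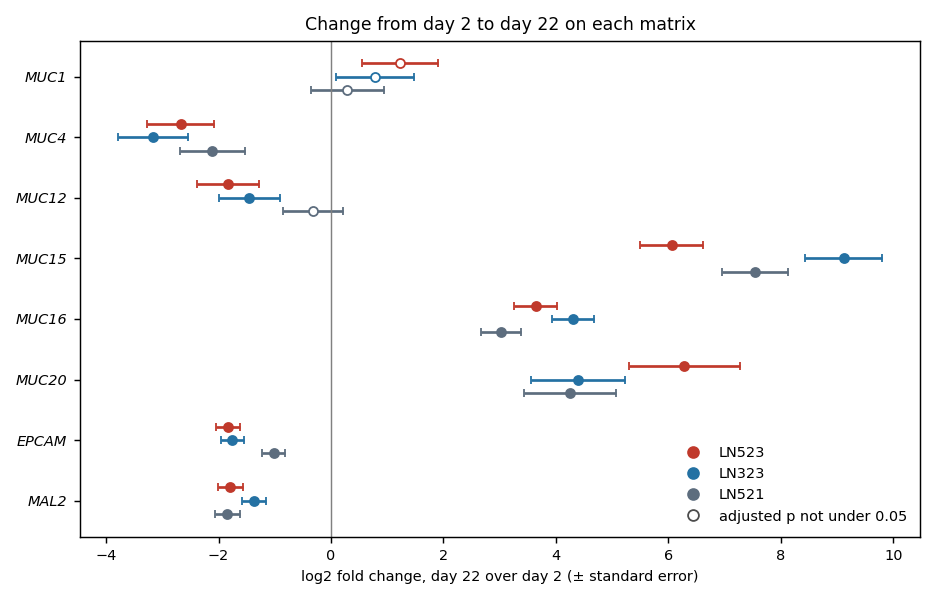
Log2 fold change of 8 genes from day 2 to day 22 on each matrix, with bars of 1 SE, open symbols where the adjusted p was not under 0.05, and CEACAM6 left out because it had 0 counts at day 2. MUC15, MUC16, and MUC20 lie above 0 and MUC4, EPCAM, and MAL2 lie below 0 on the 3 matrices, while MUC1 on each matrix and MUC12 on LN521 are open.

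Whether the change from day 2 to day 22 differed between matrices was tested by an interaction term. By this edgeR test, 0 of 9 members passed for each pair of matrices, where 0.531% (LN523 against LN521), 0.0421% (LN523 against LN323), and 0.963% (LN323 against LN521) of all genes passed. At an unadjusted p under 0.05 there were 2, 1, and 2 members, and DESeq2 and both limma fits also called 0. No share of all genes is given at that threshold, and the shares above are for adjusted p. The EPCAM change on LN523 differed from that on LN521 by -0.81 (SE 0.29, adjusted p = 0.3366, edgeR) on the log2 scale, and on LN323 by -0.74 (SE 0.29, adjusted p = 0.3809). EPCAM passed in both of these contrasts without lane 2, in the first without LN523 replicate 2 or LN521 replicate 3 of day 22, and in the second without LN323 replicate 2 of day 2. The difference in MUC16 between LN323 and LN521 was 1.27 (SE 0.48, adjusted p = 0.3162, edgeR), and the MUC16 change passed when LN521 replicate 1 of day 22 was left out.

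Other genes of the same families moved in both directions between day 2 and day 22. Of 10 further transmembrane mucins and sialomucins, 1, 1, and 2 rose and 2 fell on each of LN523, LN323, and LN521. PODXL, the sialomucin podocalyxin of pluripotent cells, had mean levels of 2468, 2194, and 2397 CPM at day 2 and fell, with log2 fold changes of -5.91, -5.78, and -5.36 (SE 0.22 to 0.23). MUC3A, which lies 1217 bases from MUC12, fell likewise (-4.31, -2.98, and -3.38, SE 0.62 to 0.67). CD164, a sialomucin of many cell types, rose by 1.44, 1.62, and 1.16 (SE 0.20). Of 7 secreted mucins, 2, 2, and 0 rose and 0, 1, and 1 fell. The gel-forming mucin MUC19 was among those that rose on LN523, by 2.53 (SE 0.48), and MUC5B fell by 1.94 (SE 0.74) on LN323.

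Enzymes that build O-linked sugars on mucins did not move one way. Of 16, 4 rose on each matrix, and 5, 4, and 5 fell on LN523, LN323, and LN521. ST6GALNAC2, which adds sialic acid, rose by 2.58, 2.77, and 2.77 on the log2 scale (SE 0.31 to 0.32). C1GALT1, which makes the core 1 sugar, fell by 1.20 (SE 0.21) on LN323 and by 1.70 (SE 0.21) on LN521. On LN523 the mean of C1GALT1 went from 102 CPM at day 2 to 34.9 CPM at day 22. The medians of the 16 log2 fold changes were -0.07, -0.12, and -0.15, beside 0.05, 0.07, and -0.04 for all genes tested.

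Among 9 partners and relatives of EPCAM, 2, 0, and 2 rose and 5, 5, and 3 fell. CD9 changed by -1.36, -1.97, and -1.37 (SE 0.21 to 0.22), CD44 by -1.95, -2.65, and -2.75 (SE 0.47 to 0.49), and the junction protein CLDN7 by -0.96 (SE 0.23) on LN523 and -1.22 (SE 0.23) on LN323. Of 8 MAL and MARVEL proteins, 2 rose on each matrix and 3, 2, and 1 fell, with MARVELD3 at -1.88, -1.80, and -1.51 (SE 0.28 to 0.29). Of 6 CEACAM relatives that could be fitted, 1 passed, CEACAM1, which fell by 1.99 (SE 0.76) on LN521.

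Of 14 apical scaffold and microvillus genes, 4, 4, and 5 rose and 4, 6, and 5 fell. The annexin ANXA1 rose by 6.30, 6.43, and 6.32 (SE 0.26), to means of 352, 333, and 327 CPM, and the microvillus protein VIL1 changed by -4.57, -5.37, and -3.70 (SE 0.54 to 0.59). Of 5 genes for ERBB receptors, MET, and the MUC16 ligand, 2 rose and 2 fell on each matrix. EGFR rose by 3.79, 3.31, and 3.32 (SE 0.24 to 0.25), and MET, the partner of MUC20, by 1.44, 1.37, and 1.40 (SE 0.20 to 0.21). ERBB2, the partner of MUC4, changed by -1.26, -1.62, and -0.80 (SE 0.18). MSLN, the ligand of MUC16, did not pass and was at mean levels of 1.70, 1.88, and 1.82 CPM at day 22.

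Matrices were compared within day 2, before the change of medium. None of the 8 genes that could be fitted passed in any of the 3 contrasts by edgeR, where 0.624% (LN523 against LN521), 0.233% (LN523 against LN323), and 2.5% (LN323 against LN521) of 38650 genes did. At an unadjusted p under 0.05 there were 2, 0, and 3 of them, and DESeq2 and both limma fits called 0. No share of all genes is given for these counts, and the shares above are for adjusted p. MUC1 was below every LN521 library in the LN523 libraries (0.347 to 0.547 against 0.835 to 1.79 CPM), and EPCAM was above (194 to 246 against 134 to 172 CPM). Such separation was found in 6.73% of all genes downward and in 6.31% upward. As TPM, EPCAM overlapped, at 254 to 316 on LN523 and 241 to 259 on LN521. LN323 replicate 2, which lay nearest to an LN523 library, was at 1.75 CPM for MUC1 and 170 CPM for EPCAM, both within the LN521 ranges. Both separations thus depend on the replicate 2 labels of LN523 and LN323, which were used as given. The log2 fold changes were -1.58 (SE 0.67, adjusted p = 0.4274, edgeR) for MUC1 and 0.40 (SE 0.18, adjusted p = 0.5036) for EPCAM. LN323 against LN521 gave -1.56 for MUC1, -1.0 for MUC16, and 0.38 for EPCAM, with adjusted p from 0.3638 to 0.3831 (edgeR). These 3 genes passed once LN323 replicate 2 was left out, and MUC1 and MUC16 passed without lane 2. Without the lane block, MUC16 alone passed.

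At day 22, MUC15 was the only one of 9 members to pass between LN523 and LN521, and it was lower on LN523. Its level was 2.82, 14.6, and 3.83 CPM on LN523 against 19.0, 14.0, and 8.43 CPM on LN521. The ranges overlapped, and MUC15 was lower on LN523 in lanes 1 and 3 but not in lane 2. The log2 fold change was -1.36 (SE 0.32, adjusted p = 0.01764, edgeR), in a contrast where 0.572% of 38609 genes passed and 0.394% passed as lower. This call rested on single libraries and on the model. It was lost without LN523 replicate 1 (-0.89, adjusted p = 0.8466), without LN523 replicate 3 (-1.40, adjusted p = 0.6494), without LN521 replicate 1 (-0.60, adjusted p = 0.7951), and without the lane block (-0.96, adjusted p = 0.9037), all by edgeR. With lanes 1 and 3 only, it was -2.0 (adjusted p = 0.001466). When LN521 replicate 2 was left out, MUC16 and EPCAM passed together with MUC15.

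The other day 22 contrasts had no member past the threshold. LN523 against LN323 had 0 of 9, where 0.013% of all genes passed, and LN323 against LN521 had 0 of 9, where 0.616% passed. At an unadjusted p under 0.05 there were 1 and 2 members, with no share of all genes given at that threshold. In both contrasts DESeq2 and the limma fits called 0. In the second, MUC15 and MUC16 passed when LN521 replicate 2 was left out. MUC15 gave -0.68 in each (SE 0.31 and 0.32). MUC1 and MUC12 lay lower on LN523 than on LN521 without overlap, at 0.785 to 1.16 against 1.18 to 1.84 CPM and at 0.190 to 1.12 against 1.35 to 1.97 CPM, where 3.51% of all genes were so separated. MAL2 lay higher without overlap, at 23.3 to 26.5 against 17.6 to 20.4 CPM, as did 3.43% of all genes. MUC1 was also lower on LN323 than on LN521 without overlap, as were 4.53% of all genes. None of these passed, with log2 fold changes of -0.61 (SE 0.54) for MUC1, -1.44 (SE 0.58) for MUC12, and 0.34 (SE 0.22) for MAL2 between LN523 and LN521. As TPM, MUC1 overlapped between LN523 (highest 1.0325) and LN521 (lowest 1.0272), while MUC12 and MAL2 stayed apart. MUC20 differed by 0.01 (SE 0.49) in that contrast.

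The day 32 values, from which the genes were picked, were widely spread within groups for MUC15 and MUC16. MUC15 was at 0.149, 12.9, and 1.77 CPM on LN523, at 1.40, 21.7, and 5.48 CPM on LN323, and at 11.6, 49.1, and 8.97 CPM on LN521. MUC16 was at 0.213, 49.8, and 1.45 CPM on LN523, at 1.85, 37.8, and 7.41 CPM on LN323, and at 47.6, 53.0, and 7.55 CPM on LN521. For MUC16 on LN523 the highest library was 233 times the lowest. In both genes, replicate 2 was the highest library of each group, and the LN523 value of replicate 2 was above 2 of the 3 LN521 values. EPCAM was at 5.16, 75.3, and 22.8 CPM on LN523, at 15.9, 68.7, and 53.9 CPM on LN323, and at 66.1, 104, and 46.8 CPM on LN521, with the same order of replicates on LN523.

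MUC20 and MAL2 differed less between replicates at day 32. MUC20 was at 0.917, 2.42, and 0.944 CPM on LN523, 2.21, 2.27, and 0.964 CPM on LN323, and 4.67, 4.99, and 2.01 CPM on LN521. MAL2 was at 17.1, 38.2, and 18.0 CPM on LN523, 16.9, 34.8, and 16.6 CPM on LN323, and 24.7, 75.9, and 34.5 CPM on LN521. CEACAM6 had its highest counts on LN521, at 22, 105, and 6, against 0, 12, and 0 on LN523 and 0, 13, and 0 on LN323. MUC1 was at 0.826 to 2.41 CPM over the 9 libraries, MUC4 at 0.0853 to 0.645 CPM, and MUC12 at 0.0213 to 1.17 CPM, and their matrices overlapped.

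Between LN523 and LN521 at day 32, all 9 log2 fold changes were below 0, with a median of -1.48 beside -0.03 for all genes. They were -3.29 (SE 0.53) for MUC15, -3.26 (SE 0.91) for MUC16, -1.75 (SE 0.40) for EPCAM, -1.48 (SE 0.46) for MUC20, and -0.86 (SE 0.23) for MAL2. The lowest was that of CEACAM6 (-4.56, SE 1.03), which rests on 12 counts against 133, of which replicate 2 held 12 and 105. MUC4 (-0.99, SE 1.02), MUC12 (-0.46, SE 0.95), and MUC1 (-0.10, SE 0.51) had errors as large as their values or larger. The ranges of LN523 and LN521 overlapped for 9 of 9 members, whereas 3.0% of all genes were lower on LN523 without overlap. Within lanes, 6 of 9 members were lower on LN523 in 3 of 3 lanes. The count for LN323 minus LN521 was also 6 of 9, with MUC4 in place of EPCAM. No share of all genes is given for this measure, and the 6 members come from the contrast that chose them. The size of the difference between LN523 and LN521 depended on the lane. MUC16 differed by -6.08 in lane 1, -0.09 in lane 2, and -2.04 in lane 3 on the log2(CPM + 0.5) scale, EPCAM by -3.55, -0.46, and -1.02, and MUC15 by -4.22, -1.89, and -2.06. When 1 library was left out in turn, MUC15 ran from -4.0 to -2.30, MUC16 from -4.93 to -1.18, EPCAM from -2.42 to -0.88, and CEACAM6 from -6.76 to -3.68. MUC12 (-1.42 to 0.55) and MUC1 (-0.40 to 0.31) changed sign.

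The LN521 libraries are shared by the contrasts of LN523 and of LN323 against them, so values of both are set side by side only. LN323 against LN521 at day 32 gave -1.83 (SE 0.49) for MUC15, -2.20 (SE 0.85) for MUC16, -0.95 (SE 0.38) for EPCAM, -1.10 (SE 0.45) for MUC20, -0.92 (SE 0.23) for MAL2, -4.54 (SE 1.04) for CEACAM6 (13 counts against 133), and 0.65 (SE 0.52) for MUC1. Without LN521 replicate 1, MUC16 was at 0.04, EPCAM at 0.03, and MUC15 at -0.74. Over the 6 fits that left out 1 library, these 3 ran down to -3.44, -1.39, and -2.36. LN523 against LN323 gave -1.46 (SE 0.48) for MUC15, -1.06 (SE 0.76) for MUC16, -0.79 (SE 0.38) for EPCAM, and 0.07 (SE 0.22) for MAL2, and 4 of its 9 values changed sign when 1 library was left out. MUC15 was lower on LN523 than on LN323 in 3 of 3 lanes. In mean level, MUC15, EPCAM, and MUC20 thus ran from LN521 through LN323 to LN523, with neighbours in this order overlapping.

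**Figure D3:**
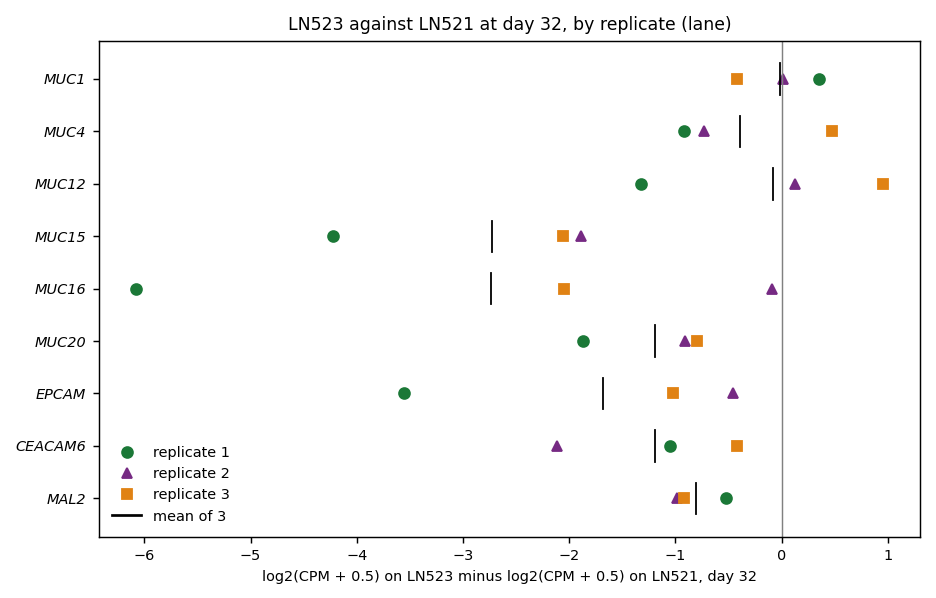
Difference of LN523 minus LN521 at day 32 for each gene on the log2(CPM + 0.5) scale, shown for replicates 1, 2, and 3, with a black bar at their mean. MUC16, EPCAM, and MUC15 are lowest in replicate 1, and MUC16 is at -0.09 in replicate 2.

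The course from day 22 to day 32 was tested on LN323 only, since its libraries did not enter the choice of genes. The fit used all 27 libraries, so its estimates of spread and lane draw also on the day 32 LN523 and LN521 libraries. On LN323, 0 of 9 members passed by edgeR, where 0.0424% of 44852 genes did, and 0 passed by DESeq2 or limma. At an unadjusted p under 0.05 there was 1 member, with no share of all genes given at that threshold. MUC12, the member with the unadjusted p under 0.05, changed by -1.79 (SE 0.69, adjusted p = 1.0, edgeR), and MUC15 by -0.48 (SE 0.55). MUC1 was at 0.723 to 1.02 CPM at day 22 and at 1.19 to 2.41 CPM at day 32 without overlap, a log2 fold change of 1.02 (SE 0.65, adjusted p = 1.0), where 4.07% of all genes were so separated. On LN521, as description, MAL2 went from 17.6 to 20.4 CPM up to 24.7 to 75.9 CPM (log2 fold change 1.13, SE 0.28), MUC20 from 1.47 to 1.61 CPM up to 2.01 to 4.99 CPM (1.20, SE 0.63), and MUC12 from 1.35 to 1.97 CPM down to 0.363 to 0.802 CPM (-1.51, SE 0.67). CEACAM6 had 0, 10, and 0 counts at day 22 and 22, 105, and 6 at day 32 (4.79, SE 1.38). The days did not overlap for MAL2, MUC20, and MUC12, as for 4.45% of all genes upward and 4.82% downward. On LN523, the lower values were those of EPCAM (-0.97, SE 0.37), MUC15 (-1.02, SE 0.56), and MUC16 (-1.31, SE 0.75). When 1 library was left out, they ran from -1.85 to -0.47, from -1.97 to -0.41, and from -4.10 to -0.65, each lowest without replicate 2 of day 32, and the ranges of the 2 days overlapped for these genes.

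Markers of surface ectoderm and epithelium moved with part of the members. This list of 18 genes (keratins, TP63, GRHL, ESRP, and TFAP2 factors) holds no member. From day 2 to day 22, 11, 10, and 12 of the 18 rose and 2, 3, and 3 fell on LN523, LN323, and LN521. TP63, the factor that marks basal epithelial cells, rose by 8.03, 8.00, and 8.51 on the log2 scale (SE 0.43 to 0.44), and the splicing factor ESRP1 changed by -3.00, -3.13, and -2.63 (SE 0.23 to 0.24). None of the 18 was at 0 in every library, but KRT14 was at 0 in 11 of 27 and KRT5 in 5. KRT8 and KRT19 had the highest means of the list on each matrix at days 22 and 32. At day 2 their means were already 350 to 476 and 198 to 254 CPM. A sum of CPM over the 18 genes is weighted toward such keratins. On LN523 at day 22 its mean was 1728 CPM, with KRT8, KRT19, and KRT18 at 755, 419, and 239 CPM and TP63 at 26.6 CPM. The summed level of the 18 was 904 to 1575 CPM at day 2 and 1285 to 2568 CPM at day 22, with overlap between the days. At day 32 it was 695, 2602, and 1218 CPM on LN523, 1136, 2597, and 1632 CPM on LN323, and 2612, 2464, and 1723 CPM on LN521. Its lowest value was thus in LN523 replicate 1, where MUC15, MUC16, and EPCAM were also lowest. The part of cells with these markers in the values of the members was not tested.

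Over the 18 libraries of days 22 and 32, Pearson correlations on the log2 scale with the summed epithelial markers were 0.89 for MUC16, 0.88 for MUC15, and 0.87 for EPCAM. They were 0.60 for MUC20, 0.58 for MAL2, 0.56 for CEACAM6, 0.33 for MUC4, 0.01 for MUC12, and -0.03 for MUC1. MUC15, MUC16, and EPCAM correlated with each other at 0.92 to 0.94, and CEACAM6 with MAL2 at 0.82. Over all 27 libraries, day 2 included, the correlation with the marker sum was 0.78 for MUC16, 0.75 for MUC15, and 0.25 for EPCAM. There EPCAM correlated at -0.25 with MUC15 and at -0.02 with MUC16, MUC15 with MUC16 at 0.91, and CEACAM6 with MAL2 at 0.11. All these points share their libraries and depth, and members of a group share a matrix. The day 32 LN523 and LN521 libraries, from whose values the genes were picked, are among the libraries used. These correlations are therefore description only.

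**Figure D4:**
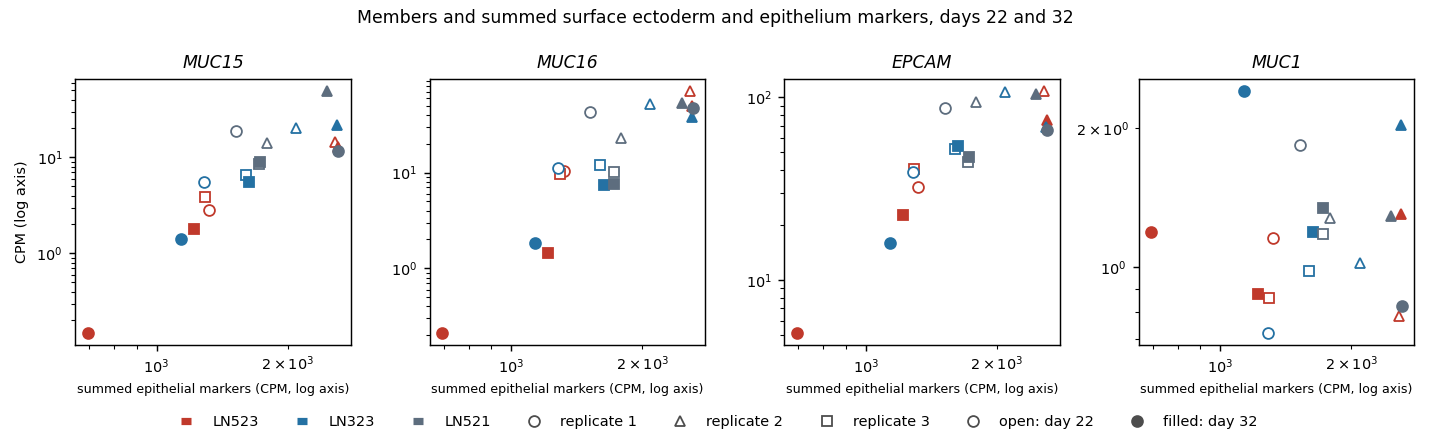
Level of MUC15, MUC16, EPCAM, and MUC1 against the summed level of 18 epithelial markers, both in CPM on log axes, in the 18 libraries of day 22 (open) and day 32 (filled), colored by matrix. MUC15, MUC16, and EPCAM rise along the marker sum (r = 0.88, 0.89, and 0.87), and MUC1 does not (r = -0.03).

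Lists for other cells also stood apart in replicate 2 on LN523 and LN323. At day 32, neural crest and mesenchyme markers summed to 6708 CPM in LN523 replicate 2 and 10528 CPM in LN323 replicate 2, against 915 to 4075 CPM in the other LN523 and LN323 libraries. Retinal progenitor markers were lowest in those same libraries, at 1660 and 1584 CPM. Of 10 amnion and trophoblast markers, 6, 6, and 7 rose from day 2 to day 22, and their sum at day 32 was 471 CPM in LN523 replicate 2 against 82.1 and 124 CPM in replicates 1 and 3. On LN521 at day 32, replicate 2 did not stand apart, with 293 to 331 CPM for this list and 1076 to 2063 CPM for neural crest and mesenchyme markers in the 3 libraries. Mesothelium markers, listed because MUC16 is a mesothelial mucin, summed to 2.21 to 27.1 CPM at day 22, with the highest value in LN523 replicate 2, where MUC16 was also highest. At day 32 this sum and MUC16 ranked the replicates of each matrix in the same order. The sum was highest in replicate 2, at 24.9, 29.9, and 18.4 CPM on LN523, LN323, and LN521. The orders were also the same on LN323 and LN521 at day 22. Across matrices and days, the sum and MUC16 did not keep the same proportion. In LN521 replicate 1 of day 22 the sum was 4.63 CPM and MUC16 was at 42.7 CPM. At day 2 the sum was 10.1 to 23.6 CPM and MUC16 was at 0.684 to 7.74 CPM. EPCAM and CEACAM6 were highest in replicate 2 in 6 of 6 groups of days 22 and 32, MUC15, MUC16, and MAL2 in 5 of 6, and MUC12 in 0 of 6. The part of these cell types in the values of the members was not tested.

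Genes whose pattern was most like that of each member were ranked over the same 18 libraries, among 15885 genes with a mean of at least 1 CPM. For EPCAM they were AP1M2 (r = 0.99), CDH1 (0.98), and CLDN7 (0.98), for MUC16 SP6 and SPINT1 (0.97 each), and for MUC15 VAMP8, MAB21L4, and TDRP (0.95 each). MUC20 lay nearest to SYNGR2 (0.87), STX12 (0.87), and OLR1 (0.85), and MAL2 to VGLL3 (0.90), TMEM30A (0.89), and PERP (0.89). MUC12 lay nearest to LIN28A (0.84), CCKBR (0.84), and HMGA1 (0.82). LIN28A was also the gene most like MUC12 over all 27 libraries (r = 0.90), where MAB21L4 was the nearest to MUC15 (0.98). These values are the highest of many and are given as description.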

How the data were processed

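Bulk RNA-seq of H1 cells covered 3 matrices, 3 days, and 3 replicates, 27 libraries. The authors made stranded libraries from total RNA after rRNA removal, sequenced 150 bp pairs, aligned them to GRCh38 (Ensembl 79) with STAR 2.5.2b, counted genes with featureCounts 1.5.1, removed rRNA and mitochondrial genes, and rounded the gene counts, which they deposited without normalization. The authors also deposited TPM of the same genes, divided by a fixed length per gene. The processing notes name cutadapt as well.

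Genes were named by GENCODE 44 (43052 of 44852 matched). Tests used edgeR 4.0.16 in R 4.3.3 (quasi-likelihood, TMM, genes with more than 1 count in sum, lane as replicate block as in the study's model), fitted across all genes of the 9 libraries of a day, of the 18 libraries of days 2 and 22, or of all 27, with Benjamini-Hochberg adjustment and a threshold of 0.05. There were 13 tested comparisons and 5 without a test. An SE is the log2 fold change divided by the square root of F. The tests were also tested on simulated data. The members and gene lists were chosen with earlier results of these data known. All 9 members are described. From each list, up to 4 genes per comparison with the smallest adjusted p and the same sign in 3 lanes could be named, and MSLN was named after its values were seen. A gene given for only some matrices may thus have moved on the others too. Some genes that this rule or the ranking by likeness selects are not reported here. Alternatives were DESeq2 1.42.0, limma 3.58.1 on log2(TPM + 1) and log2(TPM + 0.1), RLE, filterByExpr, other sets of libraries, no block, and leaving out each library. A fit on lanes 1 and 3 was chosen after seeing the data, because several members were highest in replicate 2. Replicates carry the lane number in the labels, so the numbers pair libraries by lane. Same-lane deviations from group means correlated at a median of 0.014 at day 2 (3 of 9 pairs over 0.1), 0.414 at day 22 (7 of 9), and 0.363 at day 32 (7 of 9). Depth limits precision for genes near 0 counts, where 3 counts is the limit that a count of 0 allows.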

Additional observations from a re-analysis of the deposited data

How the results depend on the processing

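No called value of a single member changed sign under the settings run. Of these values of single members, 118 of 126 kept their call when 1 library was left out, and 146 of 169 under other settings. Between LN523 and LN521 at day 22, the count of 1 called member (MUC15) became 0 with no replicate block, filterByExpr, DESeq2, limma with a pseudocount of 1 or 0.1, all 27 libraries, or only the groups compared, and ran from 0 to 3 when 1 library was left out. The cause was not tested. At day 2, LN323 against LN521 gave 0 members with the block and 1 without it, 2 in lanes 1 and 3, and 0 to 3 when 1 library was left out. LN323 against LN521 at day 22 ran from 0 to 2. The change from day 2 to day 22 against LN521 gave 1 member for LN523 and 1 for LN323 in lanes 1 and 3, and each ran from 0 to 1 when 1 library was left out. From day 2 to day 22, limma on log2(TPM + 1) called 4 members on LN523 and 4 on LN323, in place of 7, and both limma fits called 5 on LN521 in place of 6. No share of all genes called is given for these settings. The counts therefore do not show whether members lost or gained calls more than other genes did.

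The median of the 9 log2 fold changes between LN523 and LN521 at day 32 was -1.48, and became -1.10 with no replicate block and -1.13 from the deposited TPM. It ran from -1.76 to -0.99 when 1 library was left out. The median of LN323 against LN521 ran from -1.89 to -0.57, and that of day 32 against day 22 on LN521, 0.05 with all libraries, from -0.30 to 1.09, the highest without LN521 replicate 1 of day 22. The medians of LN523 against LN323 at day 32 (-0.79 to 0.03) and of day 32 against day 22 on LN523 (-0.81 to 0.05) were above 0 only without LN523 replicate 1 of day 32. Untested values of single members at day 32 also changed sign when 1 library was left out, for 2 of 9 members in LN523 against LN521 (MUC1 and MUC12), 4 in LN523 against LN323, 2 in LN323 against LN521 (MUC16 and EPCAM), 5 in day 32 against day 22 on LN523, and 3 on LN521. Fold changes of MUC15 and MUC20 from day 2 are limited by counts of 0 to 10 per library at day 2, and CEACAM6 could not be fitted there.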
